A study of Homo sapiens with 2 samples.

Results

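The genes described here encode AP-1 and BATF proteins of GM12878, a human B lymphoblastoid line made by transforming B cells with Epstein-Barr virus. They are FOS and FOSL2, JUN, JUNB and JUND, and BATF and BATF3. A region of the deposited list belonged to a gene if its midpoint lay inside the gene span or within 50 kb of either end of it, in the build hg19. By this rule 15 regions of 23612 belonged to the 7 genes, and no region belonged to more than 1 of them. The assay was ATAC-seq, which reads out accessible chromatin through a transposase that inserts sequencing adapters where DNA is exposed. Both libraries were made from untreated cells in exponential growth, 50000 from each of 2 cultures. They form 1 group and share 1 deposited list, which carries no values per culture. Depth is therefore unknown, no difference could be tested over samples, and every comparison below describes this list. The identity of the line was not checked against marker genes, because hg19 positions were used here for the 7 genes only.

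AP-1 is a family of dimeric transcription factors whose subunits pair through a leucine zipper and grip DNA with a neighbouring basic stretch. JUN proteins pair with themselves or with FOS proteins, whereas FOS proteins need a JUN partner. BATF proteins also pair with JUN proteins, and in lymphocytes these dimers bind composite sites together with the interferon regulatory factors IRF4 or IRF8. FOS, JUN and JUNB are textbook immediate early genes, switched on within minutes of stimulation, while JUND is more evenly transcribed. BATF is needed for antibody class switching, and BATF3 is best known for its part in the development of cross-presenting dendritic cells. BATF is also known as a target of the viral transactivator EBNA2 in B cells carrying Epstein-Barr virus.

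The sequences just before the starts of the genes are shown because the genes parted at their starts: those of FOS, FOSL2, JUN, JUNB and JUND lay inside an accessible region, and that of BATF did not. Each line gives the 250 bases before the RefSeq start in the build GRCh38.p14, 5′ to 3′ along the gene's strand. Capitals mark TGACATCA, TGACGT and TGACGTCA, which are sites of the AP-1 and cAMP response element type, and the CCAAT and TATAAA boxes, on either strand. FOS lies at chr14:75278578-75278827 (plus strand), FOSL2 at chr2:28392608-28392857 (plus), JUN at chr1:58784048-58784297 (minus), JUNB at chr19:12791236-12791485 (plus), JUND at chr19:18281623-18281872 (minus) and BATF at chr14:75522219-75522468 (plus).
FOS: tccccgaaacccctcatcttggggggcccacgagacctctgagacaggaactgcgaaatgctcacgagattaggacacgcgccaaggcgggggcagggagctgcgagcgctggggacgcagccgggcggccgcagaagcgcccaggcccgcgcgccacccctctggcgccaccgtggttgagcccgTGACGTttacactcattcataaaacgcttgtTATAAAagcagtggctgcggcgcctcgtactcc
FOSL2: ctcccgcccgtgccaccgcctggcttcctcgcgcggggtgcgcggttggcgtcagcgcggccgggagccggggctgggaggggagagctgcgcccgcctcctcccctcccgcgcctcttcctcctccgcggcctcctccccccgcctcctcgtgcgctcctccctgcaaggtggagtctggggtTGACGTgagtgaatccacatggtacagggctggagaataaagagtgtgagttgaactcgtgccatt
JUN: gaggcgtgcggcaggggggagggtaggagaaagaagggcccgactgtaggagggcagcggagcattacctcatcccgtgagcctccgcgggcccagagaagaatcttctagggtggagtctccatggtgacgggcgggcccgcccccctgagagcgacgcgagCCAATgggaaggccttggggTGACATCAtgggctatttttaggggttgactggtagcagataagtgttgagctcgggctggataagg
JUNB: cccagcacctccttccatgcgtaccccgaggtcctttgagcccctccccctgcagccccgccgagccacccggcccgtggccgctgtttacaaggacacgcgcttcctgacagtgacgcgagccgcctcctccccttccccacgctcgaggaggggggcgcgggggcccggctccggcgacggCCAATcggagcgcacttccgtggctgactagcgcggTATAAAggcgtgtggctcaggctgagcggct
JUND: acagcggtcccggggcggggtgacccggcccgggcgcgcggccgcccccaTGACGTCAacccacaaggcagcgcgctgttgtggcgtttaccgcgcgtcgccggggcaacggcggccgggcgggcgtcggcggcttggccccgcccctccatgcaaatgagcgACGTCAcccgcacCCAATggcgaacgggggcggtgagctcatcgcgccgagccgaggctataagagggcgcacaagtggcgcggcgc
BATF: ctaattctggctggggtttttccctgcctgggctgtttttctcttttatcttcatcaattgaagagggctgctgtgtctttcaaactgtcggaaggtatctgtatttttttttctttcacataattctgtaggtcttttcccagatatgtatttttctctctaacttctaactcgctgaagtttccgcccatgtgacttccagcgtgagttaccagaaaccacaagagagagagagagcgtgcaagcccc

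Among the 7 genes, FOS, FOSL2, JUN, JUNB and JUND had an accessible region across the start, and BATF and BATF3 did not. The starts of 5 of the 7 genes were covered, and all 5 regions that covered them had the score 1000, which is the cap and the value of 60.1% of all regions in the list. As a scale, 0.682% of the bases of chromosomes 1 to 22 and X lay inside any region, although gene starts are not ordinary bases. The share of all gene starts inside a region was not computed. Whether 5 of 7 is more than usual for gene starts is therefore not known. The count was also 5 when a region within 1 kb of the start was enough. The start of BATF lay 17041 bp from the nearest region and that of BATF3 16221 bp. Of the bases of chromosome 14 outside centromeric, variable and stalk bands, 80.4% lay at least as far from a region as the BATF start did. On chromosome 1 the share was 78.3% for the distance of the BATF3 start. Both starts thus lay closer to a region than most of their chromosome, but not inside one. With the depth unknown, a start without a listed region is not shown to be closed.

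**Figure D1:**
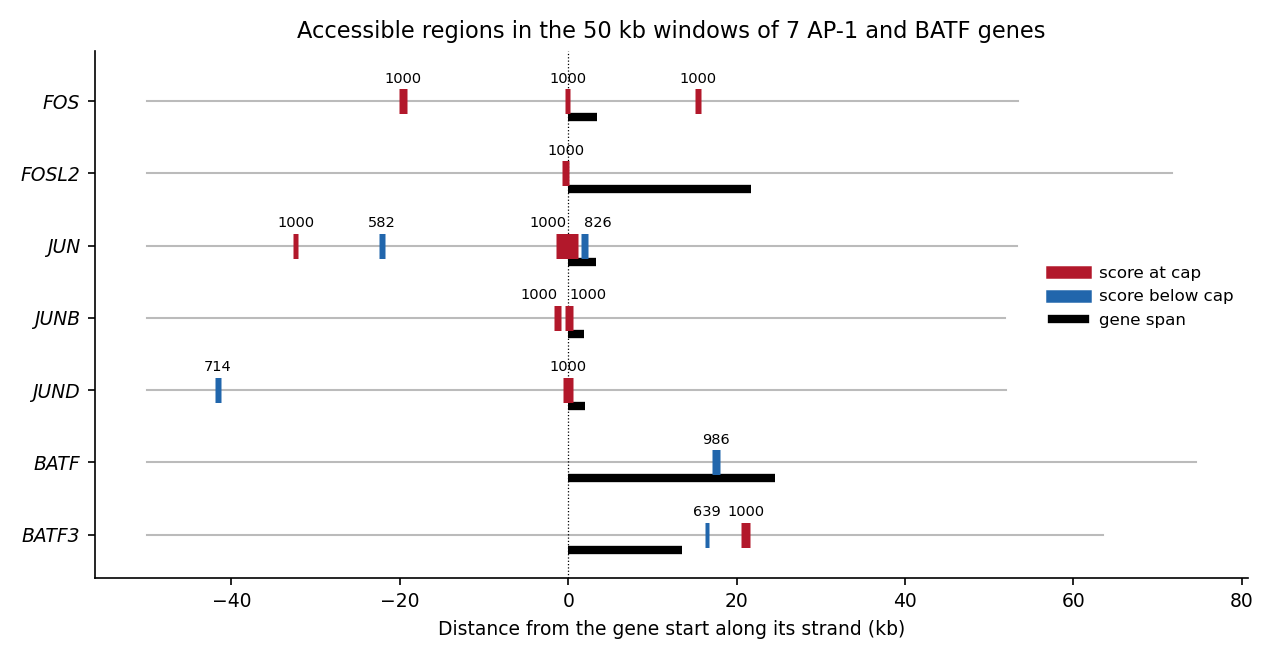
Position of the 15 regions in the 7 windows, in kb from the gene start along its strand, with the authors' score above each region; thin lines are the windows, black bars the gene spans. Regions sit on the starts of FOS, FOSL2, JUN, JUNB and JUND, and the regions of BATF and BATF3 lie more than 15 kb after the start.

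The authors' score is a whole number per region without a stated scale, with 541 the lowest value in the list and 1000 the cap. The name of the list carries an abbreviation that reads as the irreproducible discovery rate (IDR), a measure of agreement between replicates, with a threshold of 0.05. On the usual scaled form of that measure the threshold would give 540, just under the lowest score. No label spells this out, but if it holds, a start outside every region may have had signal that did not pass in both cultures. Of the 15 regions, 10 were at the cap (66.7%, exact Clopper-Pearson 95% interval 38.4% to 88.2%, for counting error only), against 60.1% of the whole list. The interval includes the share of the list, so no difference from it was detectable with 15 regions. The 5 regions below the cap scored between 582 and 986, and none of them crossed a start. Away from the starts, 5 of 10 regions were at the cap.

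FOS, the immediate early partner of the JUN proteins, had 3 regions, all at the cap. Its span was chromosome 14, 75745481 to 75748937, on the plus strand in band 14q24.3. The start lay in a region of 649 bp (75745079 to 75745727), which reached 402 bp before the start and 246 bp past it. A wider region of 909 bp lay upstream (75725433 to 75726341), ending 19140 bp before the start. Another of 709 bp lay past the gene (75760578 to 75761286), beginning 15097 bp after the start and 11641 bp beyond the end of the span. The region at the start was thus the narrowest of the 3, and the other 2 flanked it at similar distances. On chromosome 14, 9.51% of consecutive windows of the same length held 3 or more regions.

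The window of FOSL2, which encodes the FOS relative Fra-2, held 1 region, and it lay on the start. The span was chromosome 2, 28615779 to 28637516, on the plus strand in band 2p23.2. The region was 885 bp wide and at the cap (28615035 to 28615919), with 744 bp before the start and 140 bp after it. It stood far from any other: the nearest region on the lower side was 500991 bp away and on the higher side 358117 bp. Only 4.66% and 7.57% of the 23421 gaps between neighbouring regions on chromosomes 1 to 22 and X were as long. The authors' region numbers ran on across both stretches, with 0 skipped. Only 301 numbers were skipped in the whole list, so this is usual for a gap. Of windows of this length on chromosome 2, 49.3% held 1 or more regions, so the count itself was ordinary for the chromosome.

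JUN, the founding member of its family, had the most regions, 4, and the widest. Its span was chromosome 1, 59246463 to 59249785, on the minus strand in band 1p32.1. The region across the start was 2630 bp wide and at the cap (59248654 to 59251283), covering 1498 bp before the start and 1131 bp after it. Of all regions in the list, 0.775% were as wide. A region of 723 bp with a score of 826 lay inside the gene (59247498 to 59248220), from 1565 to 2287 bp after the start. Just 433 bp separated these 2 regions, a gap as short as or shorter than which made up 2.78% of all gaps. Together they covered 55.8% of the JUN span.

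The other 2 JUN regions lay upstream. The nearer was 663 bp wide and had the lowest score of the 15 (59271544 to 59272206, score 582), 21759 bp before the start. The farther was 593 bp wide and at the cap (59281834 to 59282426), 32049 bp before the start. On chromosome 1, 4.76% of consecutive windows of the same length held 4 or more regions. The JUN window had 4.46% of its length inside regions, against at most 2.19%, for FOS, in the other 6 windows.

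JUNB, a JUN protein abundant in activated lymphocytes, had 2 regions, both at the cap and both at the 5′ end. Its span was chromosome 19, 12902310 to 12904125, on the plus strand in band 19p13.2. The region across the start was 876 bp wide (12901961 to 12902836), with 349 bp before the start and 526 bp after it. The other, of 841 bp, lay just upstream (12900574 to 12901414) and ended 896 bp before the start. The gap between them was 546 bp, and 3.3% of all gaps were as short. Past the start the list was empty for 98565 bp, a length reached by 29.8% of gaps. In the RefSeq order of protein-coding genes (GRCh38.p14), the neighbours of JUNB are HOOK2 on the lower side and PRDX2 on the higher side. Of windows of this length on chromosome 19, 28.9% held 2 or more regions.

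JUND, the more evenly transcribed JUN gene, had 2 regions far apart. Its span was chromosome 19, 18390504 to 18392466, on the minus strand in band 19p13.11. A region of 1195 bp at the cap lay across the start (18391860 to 18393054) and was nearly centred on it, with 588 bp before it and 606 bp after it. The other was 630 bp wide with a score of 714 (18433758 to 18434387) and lay 41292 bp upstream. Its midpoint, 41.6 kb from the span, was the farthest of the 15. The nearest region outside any of the windows had its midpoint 54.2 kb from the span of JUNB, so no region lay within 1 kb of the limit on either side. On chromosome 19, 30.2% of windows of this length held 2 or more regions.

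BATF, the partner of JUN proteins in activated B and T cells, had 1 region, inside the gene. Its span was chromosome 14, 75988784 to 76013334, on the plus strand in band 14q24.3. The region was 1008 bp wide (76005825 to 76006832) and began 17041 bp after the start. Its score of 986 was higher than 97.7% of the scores below the cap. It was still lower than the 60.1% of all regions that were at the cap. Whether it is exonic or intronic was not determined, since no hg19 transcripts were used here. Of windows of this length on chromosome 14, 44.1% held 1 or more regions.

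Upstream of this region the list was empty for 244538 bp, up to the last region of FOS (chromosome 14, 75761287 to 76005824). Of all gaps, 12.4% were as long. The gap takes in the start of BATF. Any given position falls more often in a long gap than in a short one. The share among gaps thus makes a gap around a chosen start, here and at BATF3 below, look rarer than it is. By RefSeq order, the protein-coding gene between FOS and BATF is JDP2, which encodes a repressor of the same protein family, and no other lies between them. On the far side of the region the next gap was 120163 bp, and 25.5% of gaps were as long. No region number was skipped in either, as is usual in this list.

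BATF3 had 2 regions, both past the end of the gene. Its span was chromosome 1, 212859760 to 212873327, on the minus strand in band 1q32.3. The nearer region was the narrowest of the 15, at 522 bp, with a score of 639 (212856585 to 212857106), and lay 2654 bp beyond the end of the span. The other was 1055 bp wide and at the cap (212851747 to 212852801), 6959 bp beyond the end. The gap between them was 3783 bp, and 12.1% of gaps were as short. A gap of 107636 bp (212857107 to 212964742), reached by 27.8% of gaps, took in the whole BATF3 span, so no region touched the gene. Of windows of this length on chromosome 1, 24.8% held 2 or more regions.

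**Figure D2:**
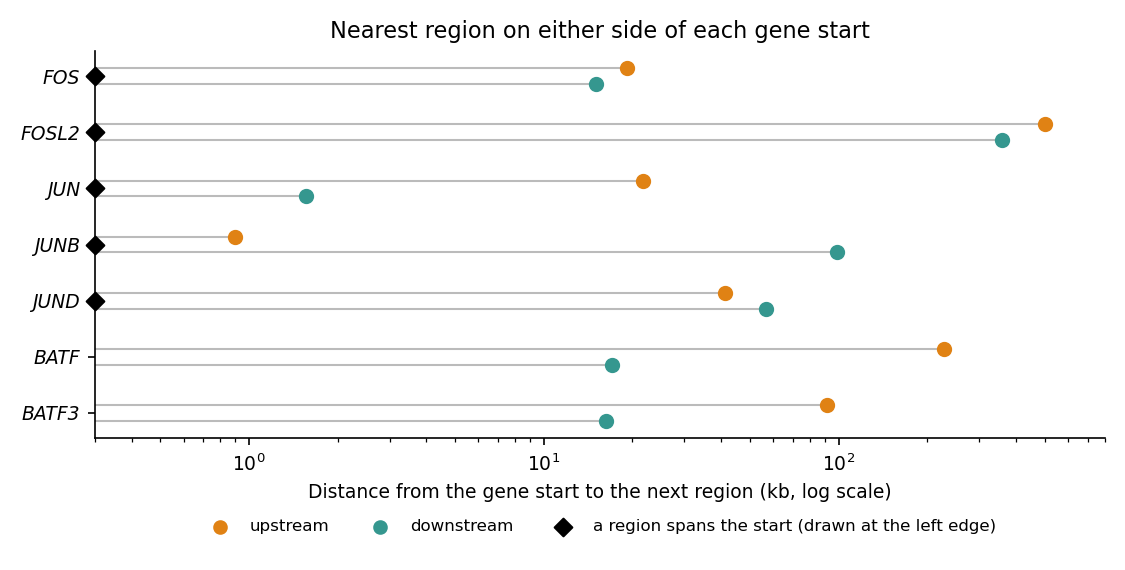
Distance in kb, on a log axis, from each gene start to the next region upstream and downstream, leaving out a region that spans the start (diamonds at the left edge). FOSL2 stands alone on both sides, at 502 and 358 kb, and BATF has its nearest upstream region at 227 kb.

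By family, the 3 JUN genes had 8 regions, 4 of them at JUN, the 2 FOS genes had 4 and the 2 BATF genes 3. The families differ in number of genes and in window length, so these counts do not rank them. By position, 5 regions crossed a start, 2 lay inside a span, 5 upstream and 3 past the end of the gene. Besides those across a start, 2 regions lay within 2 kb of one, at JUN and JUNB, 0 lay between 2 and 15 kb, and 8 lay farther. The nearest of these 8 began 15.1 kb from its start, just past that limit, and most of each window lies farther than 15 kb from the start. No background share was computed for these distances, so the empty class is a description only.

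Regions across a start were 649 to 2630 bp wide, with a median of 885 bp over 5 regions, and the other 10 were 522 to 1055 bp wide, with a median of 716 bp. The ranges overlapped, and the difference was not tested, because regions are not replicates. Over the 15 regions the median was 841 bp (binomial interval from ranks, 649 to 1008 bp). The list had a median of 756 bp and quartiles of 547 and 1082 bp, so the median of the list lay inside that interval. Only the regions across the starts of JUN and JUND were wider than the upper quartile, and only the nearer BATF3 region was narrower than the lower.

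**Figure D3:**
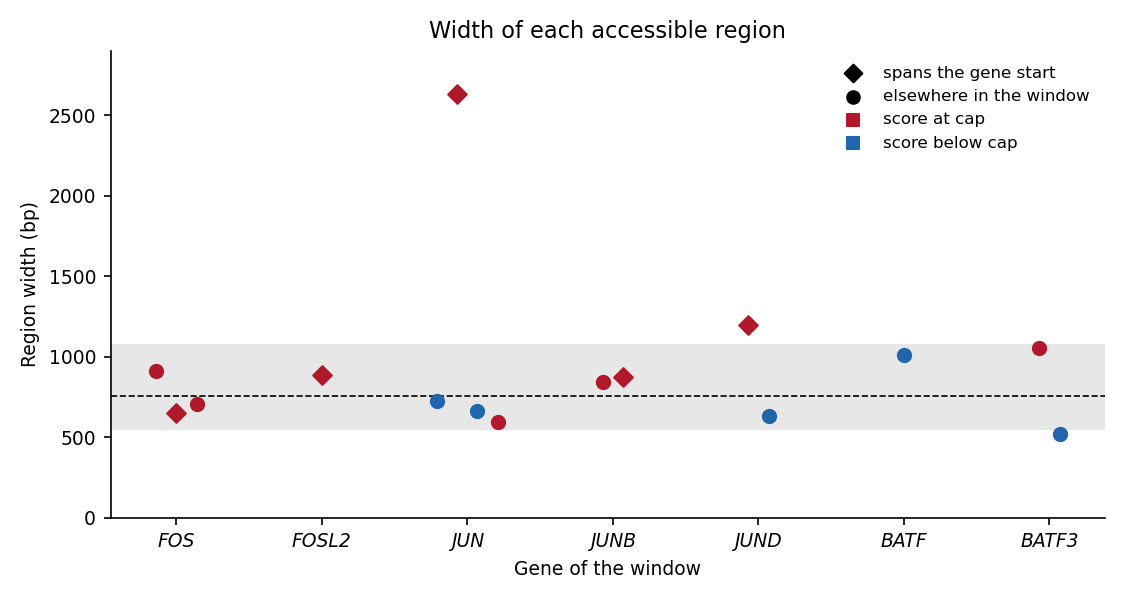
Width in bp of each of the 15 regions by gene, in order of genome position within a gene; the band spans the quartiles of the whole list (547 to 1082 bp) and the dashed line is its median (756 bp). The region across the JUN start, at 2630 bp, stands above all others.

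The windows together held 19.5 regions per Mb (exact Poisson 95% interval 10.9 to 32.1, for counting error only). This was 2.52-fold the 7.72 per Mb of chromosomes 1 to 22 and X, taken over their full length with centromeric, variable and stalk bands. The value in the windows depended on their size, with 30.9 per Mb within 25 kb of the spans. Any window set around genes may hold more regions than the genome at large, and this was not tested. The values ran from 8.03 per Mb for BATF and 8.21 for FOSL2 to 29.0 for FOS and 38.7 for JUN. JUNB, JUND and BATF3 lay between, at 19.6, 19.6 and 17.6 per Mb. With 1 to 4 regions in a window, neighbours in this order differ by too few regions to be told apart.

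Against their own bands, 6 of the 7 windows were denser, and BATF was the exception with 8.03 against 9.09 per Mb in 14q24.3. FOS lies in the same band and had 29.0 per Mb. FOSL2, with its lone region, still exceeded its sparse band, at 8.21 against 3.33 per Mb in 2p23.2. JUN had 38.7 against 8.70 per Mb in 1p32.1 and JUNB 19.6 against 9.57 in 19p13.2. The margin was narrow for JUND, at 19.6 against 15.7 per Mb in 19p13.11, and for BATF3, at 17.6 against 16 in 1q32.3. Against their chromosomes, 6 windows were also denser, and here FOSL2 was the exception, at 8.21 against 8.90 per Mb on chromosome 2. Centromeric, variable and stalk bands were left out of these chromosome values.

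**Figure D4:**
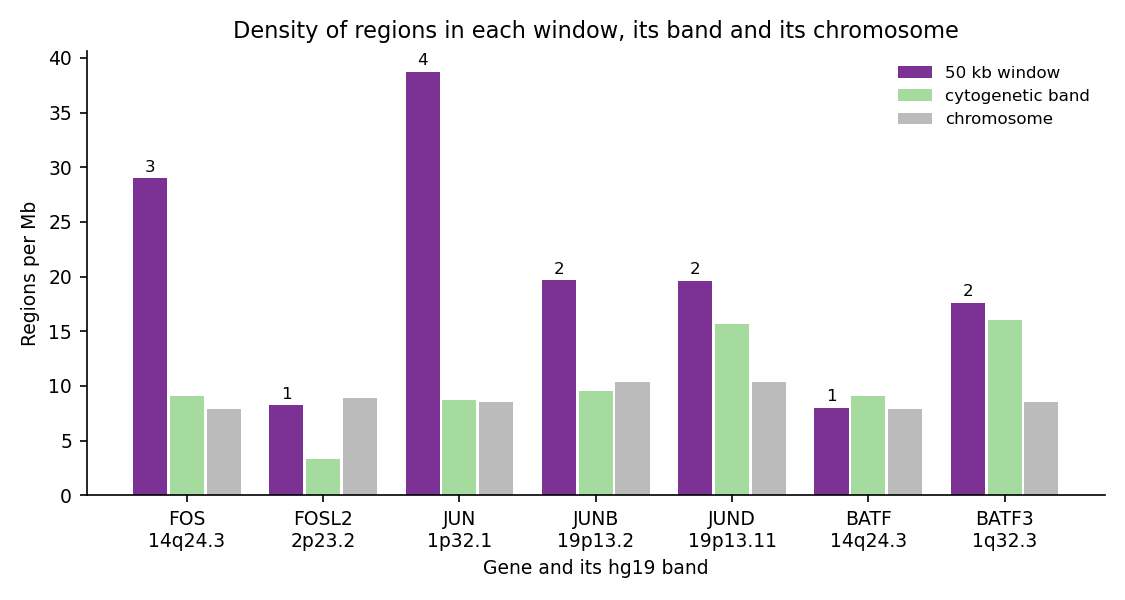
Regions per Mb in each 50 kb window, in the hg19 cytogenetic band of the gene and in its chromosome without centromeric, variable and stalk bands; the number of regions in the window stands above its bar. JUN and FOS have the tallest bars, at 38.7 and 29.0 per Mb, and BATF and FOSL2 rest on 1 region each.

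Regions were joined at the distance used for clusters in the whole list, which here joined gaps of up to 9627 bp and left those of 14850 bp and more. Joined in this way, 8 of the 15 regions fell into 4 pairs and 7 stood alone, against 58.1% of the regions on chromosomes 1 to 22 and X that stood alone. The pairs were the JUN start with the region inside the gene, the 2 upstream JUN regions, the 2 JUNB regions and the 2 BATF3 regions. Clusters of 5 or more regions held 949 regions of these chromosomes, or 4.05%, and 0 of the 15, a count too small to set against that share.

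The promoter sequences differed in base composition. The RefSeq promoter table held FOS, FOSL2, JUN, JUNB, JUND and BATF, and BATF3 was not used here. The 250 bases before the start of BATF had 43.2% GC and 5 CpG dinucleotides, and 34.3% of all promoters had fewer CpG. Those of the 5 genes with an accessible start had 62% GC and 14 CpG for JUN, 64.8% and 25 for FOS, 69.6% and 24 for FOSL2, 70.8% and 27 for JUNB, and 74.8% and 40 for JUND. All 5 lay above the medians of the 35116 promoters in the table, 58% GC and 11 CpG, and BATF lay below both. Of all promoters, 18.6% had a lower GC content than that of BATF, 59.2% a lower one than that of JUN and 89.2% a lower one than that of JUND. JUN was near the middle for CpG as well, with fewer in 55.2% of promoters, and BATF lay above the lower quartile of 3 CpG. No test of the difference was made over 6 genes, and GC and CpG were examined after the sequences had been seen.

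**Figure D5:**
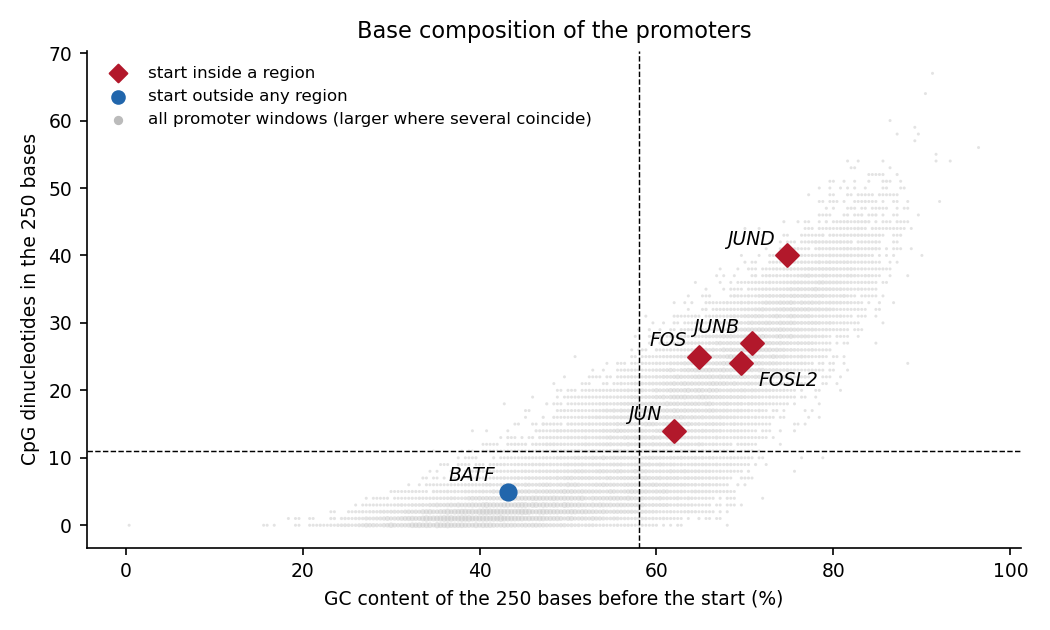
GC content and number of CpG dinucleotides in the 250 bases before the start of FOS, FOSL2, JUN, JUNB, JUND and BATF, over all promoters of the RefSeq table in grey; dashed lines are the medians of the table. The 5 genes whose start lay in a region are above both medians, and BATF, at 43.2% GC and 5 CpG, is below both.

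Sites of the kind that AP-1 and related factors bind began at most 200 bases before the starts of FOS, FOSL2, JUN and JUND. The core TGACGT began 64 bases before the start of FOS and 66 before that of FOSL2, and TGACATCA began 67 bases before that of JUN. JUND had the palindrome TGACGTCA beginning 200 bases before its start and a further core on the other strand beginning 87 before. JUNB and BATF had neither. In the windows of 300 bases, which run 50 past the start, the core was found in 3 of the 6 promoters and in 7.98% of all promoters, and TGACATCA in 1 of 6 and in 2.61%. The core and TGACATCA were added to the search after the sequences had been read, so their distances and shares are descriptions only. Each TGACGTCA also holds the core.

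Of the other 10 motifs, searched exactly and on both strands, the AP-1 site TGACTCA was found in FOSL2 alone, beginning at base 5 after the start, and in 4.95% of all promoters. TGACGTCA was found in JUND alone and in 1.85% of all promoters. The GC box GGGCGG was in every one of the 6 promoters except that of JUNB (45.0% of all promoters), and CCAAT in those of JUN, JUNB and JUND (34.6%). TATAAA stood 33 bases before the start of FOS and 31 before that of JUNB, and was in 11.5% of all promoters. JUNB also held the ETS motif CACTTCC (11.2%). BATF held the NF-kB type motif GGGA, 4 unspecified bases, CC (25.6%). For the STAT motif TTCNNNGAA, the E-box CACGTG and the IRF motif GAAA, 2 unspecified bases, GAAA, 0 of the 6 matched, against 7.66%, 7.26% and 3.57% of all promoters. A match says only that these letters are in the window.

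The promoters and the regions come from different builds, so a RefSeq start and the start of an hg19 span need not be the same base. For 6 genes the lengths of the gene in both differed by 144 bp or less, and for FOSL2 by 2722 bp. Lengths cannot show whether the starts match, and this was not checked. The regions across the 5 starts reached 349 to 1498 bp before them, farther than the 250 bases shown.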

How the data were processed

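ATAC-seq regions of 2 GM12878 cultures were read from the 1 deposited list, in hg19. The authors deposited a start, an end, a number and a whole-number score per region, without a header. Per the submitters' processing notes, the tools included MACS2 2.1.0, BWA 0.7.13, bedtools 2.24.0, Trim Galore 0.3.3, SAMtools 0.1.19, CASAVA 1.8.4 and Picard 1.92, without stated roles. The scale of the score, and whether reads were shifted for the transposase, are not given in the sources used here. Positions are 1-based. The 7 gene spans were those of the rule that chose the genes. The genes, motifs and comparisons were chosen with earlier results of these data known.

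Regions were assigned by midpoint, and those with 12.5 kb or less between them were joined into clusters. Consecutive windows of equal length, without centromeric, variable and stalk bands, gave the background for each count, with bands and lengths from circlize 0.4.16. Promoters came from RefSeq (GRCh38.p14). No p-value was computed. All 7 genes and all 15 regions are named. Protein identity was listed in the plan and was not run, since no protein sequences were used here. Python 3.11.15, numpy 2.4.6, pandas 2.3.3, scipy 1.17.1 and matplotlib 3.10.9 were used. Region and motif counting was tested on simulated data. The alternatives were other window sizes, assignment rules, joining distances, regions at the score cap, and leaving out each gene.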

Additional observations from a re-analysis of the deposited data

How the results depend on the processing

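Of 34 alternatives over 7 results, 32 stayed within 1.5 times a count or within the interval of a value, and 2 moved. This rule is lenient, since the intervals for the share at the cap and for the regions per Mb are wide. The count of 10 regions at the cap, against 15 in all, was just at the limit. Widening the windows to 100 kb gave 28 regions in place of 15, by construction. With regions at the score cap only, 1 of the 4 pairs was left, that of JUNB, since the other pairs each hold a region below the cap. At 25 kb the windows held 13 regions, or 30.9 per Mb in place of 19.5. This was taken as unmoved only because the interval reached from 10.9 to 32.1 per Mb. Leaving out 1 gene at a time gave 16.5 to 21.7 regions per Mb and 58.3% to 72.7% of regions at the cap. The 5 covered starts were the same number within 1 kb, and also at the cap, where all 5 covering regions were already known to be. No paired analysis was possible because values per culture were not at hand, and no replicate could be left out. Depth is unknown, and genes are not replicates, so these ranges do not measure the error between cultures.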

Other observations

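Between 50 and 100 kb from the spans, 13 further regions lay near 4 of the 7 genes, 6 of them at the score cap. BATF3 had 6 of these, JUNB 3, JUND 3 and JUN 1, while FOS, FOSL2 and BATF had 0. Of the 6 around BATF3, 4 lay past the end of the gene and 2 upstream. The upstream pair (chromosome 1, 212964743 to 212965607 and 212967672 to 212968377) had scores of 772 and 1000. The nearest region past the JUNB gene (chromosome 19, 13001402 to 13002113) was 712 bp wide and at the cap, with its midpoint 97.6 kb from the span.

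Among related genes outside the 7, promoter windows were at hand for FOSB, BATF2, JDP2 and ATF3, and FOSL1 was not used here. Their accessibility was not analysed here. FOSB, a close relative of FOS, had the core TGACGT beginning 60 bases before its start, TATAAA 30 bases before it, 65.6% GC and 19 CpG dinucleotides. BATF2 resembled BATF in CpG, with 7 at 55.2% GC, and had TGACATCA 132 bases before its start. The promoter of ATF3, a stress-induced factor, that comes first in the table had TGACATCA 123 bases before its start and 4 CpG. The other ATF3 window had 44.8% GC and 0 CpG, and held neither TGACATCA nor the core. The 3 JDP2 windows had 21, 26 and 45 CpG, and the second of them held the core 97 bases before its start. None of the related windows held TGACTCA or TGACGTCA. The NF-kB type motif, which BATF alone held among the 6 promoters above, was in 5 of the 7 related windows.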
